A study of Mus musculus with 34 samples.

Results

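The kinesin genes are the 42 protein-coding mouse genes whose symbol is Kif or Kifc followed by a family number and, in most cases, a letter, out of 21887 that code for protein on the autosomes and sex chromosomes of the build GRCm38.p6. The rule reads the symbol and no measured value. By what each motor is known to do they were divided into 14 mitotic and meiotic kinesins, 17 transport kinesins and 11 other or ciliary kinesins. The question put to them was where Tn5, the transposase that cuts and tags accessible DNA in ATAC-seq, found their gene ends open or nucleosome-bound while germ cells passed from meiosis to sperm, and which of those sites were missing without the histone acetyltransferase Gcn5.

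The libraries came from 4 stages of male germ cells: MS, the fraction of cells in meiosis; RS, the round spermatids; ES, the spermatids that elongate and condense; and Sp, mature sperm taken from the epididymal cauda. The cKO mice were C57BL6 with floxed Gcn5 alleles deleted by a Stra8-driven Cre, which is active in germ cells shortly before meiosis and spares the somatic cells of the testis. The WT mice were C57BL6 with both Gcn5 alleles intact. The third background was SV129, also with intact Gcn5, from adults of 8 to 12 weeks, 11 of them pooled per collection. The same protocol text is attached to the C57BL6 samples, and their own ages and numbers of mice are not given in the sources used here. cKO and WT had 2 libraries at each stage. SV129 had 4 at MS, RS and ES, which were technical pairs of 2 biological replicates, and 6 at Sp. Reactions used 100000 cells at MS and Sp and 200000 at RS and ES, so that input differed along with stage. The stated purity of the cells was at least 85%. For each of the 12 groups the authors deposited 1 list of subnucleosome peaks, which mark short accessible stretches, and 1 list of nucleosome calls of 150 bp.

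Kinesins are motor proteins that use ATP to walk along microtubules or to take their ends apart. In dividing cells some of them build the bipolar spindle, move and align chromosomes and complete cytokinesis, and their genes are switched on before cell division. Others carry vesicles, mitochondria and cilium components. Male germ cells need both kinds, for the meiotic divisions and for the manchette, acrosome and flagellum that shape the sperm.

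A gene was counted as occupied in a list when at least 1 interval overlapped a window reaching 500 bp to each side of one of its annotated ends. Neither end was favoured, because the gene table gives no strand. For 33 of the 42 kinesins the RefSeq promoter table of the same build gave a start site and strand, and positions are given from that start. One list per group leaves no replicate error, so no difference between stages or backgrounds could be tested. The difference between the intact lists, SV129 and WT, shows how far 2 lists with Gcn5 can differ, although it also holds strain and the number of libraries. Wilson 95% intervals cover counting error over genes only. The lists differed in length, with 4075 peaks in cKO round spermatids against 56480 in WT and 29243 in SV129, and read depth is unknown. Of the cKO peaks in round spermatids, 99.8% overlapped a WT peak. Meiotic markers (Sycp1, Sycp3, Spo11, Meiob and Hormad1) had a peak at 4 of 5 genes in every MS list. At RS they had one at 1 of 5 genes in cKO, 4 of 5 in WT and 4 of 5 in SV129. Spermatid markers (Acrv1, Spaca1, Tssk6, Tnp1 and Prm1) had one at 0 of 5 genes in cKO round spermatids, against 5 of 5 in WT and 5 of 5 in SV129. At MS they had one at 3 of 5 genes in cKO, 4 of 5 in WT and 4 of 5 in SV129, so neither set was confined to 1 stage. Leydig, blood, Sertoli and epididymal markers had at most 1 gene with a peak in any list. The epididymal marker Krt8 had one in SV129 sperm.

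The promoters of 8 kinesins are printed here because they carry the sequence difference between the classes and the genes whose peaks are described next. Capitals mark matches, on either strand, to the CHR element (TTTGAA), which binds the MuvB complexes that time genes of the cell cycle, to the CCAAT box (CCAAT), bound by NF-Y, to the RFX motif (GTTGCCA) and to the CRE (TGACGTCA), bound by CREB and CREM. Each window holds 250 bases before and 50 after the start, from RefSeq on GRCm38.p6, 5′ to 3′ on the gene's own strand. Kif11 (chr19:37376132-37376431, plus strand), Kif4 (chrX:100625815-100626114, plus), Kif20b (chr19:34922108-34922407, plus), Kifc1 (chr17:33890584-33890883, minus) and Kifc5b (chr17:26916841-26917140, plus) are mitotic or meiotic kinesins with a CHR element beside the start. Kif18a (chr2:109280488-109280787, plus) is the mitotic kinesin with a CRE and no CHR element. Kif17 (chr4:138262001-138262300, plus) and Kif1b (chr4:149307684-149307983, minus) are transport kinesins.
Kif11: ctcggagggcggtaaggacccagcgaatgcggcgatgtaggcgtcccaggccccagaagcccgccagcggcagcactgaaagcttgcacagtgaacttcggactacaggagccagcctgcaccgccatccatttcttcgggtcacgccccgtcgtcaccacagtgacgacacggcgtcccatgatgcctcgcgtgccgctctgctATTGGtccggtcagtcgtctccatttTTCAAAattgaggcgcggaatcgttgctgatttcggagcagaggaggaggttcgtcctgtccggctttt
Kif4: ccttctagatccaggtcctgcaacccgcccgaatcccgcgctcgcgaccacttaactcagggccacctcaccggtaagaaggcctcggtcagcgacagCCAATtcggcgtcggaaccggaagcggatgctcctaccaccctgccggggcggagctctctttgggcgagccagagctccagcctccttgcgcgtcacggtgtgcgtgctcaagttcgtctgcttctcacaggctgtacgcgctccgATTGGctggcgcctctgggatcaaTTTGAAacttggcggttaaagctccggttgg
Kif20b: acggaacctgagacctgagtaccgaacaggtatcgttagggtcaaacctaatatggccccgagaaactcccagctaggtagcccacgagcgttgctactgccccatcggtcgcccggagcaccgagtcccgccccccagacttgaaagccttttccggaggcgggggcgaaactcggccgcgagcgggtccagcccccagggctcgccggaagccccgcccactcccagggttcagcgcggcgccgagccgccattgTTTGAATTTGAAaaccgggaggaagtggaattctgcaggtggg
Kifc1: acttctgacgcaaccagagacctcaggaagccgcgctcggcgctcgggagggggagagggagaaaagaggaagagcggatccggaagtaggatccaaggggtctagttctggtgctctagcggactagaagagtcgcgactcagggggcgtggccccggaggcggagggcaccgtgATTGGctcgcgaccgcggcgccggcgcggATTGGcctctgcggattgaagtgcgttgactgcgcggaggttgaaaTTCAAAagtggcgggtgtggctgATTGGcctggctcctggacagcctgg
Kifc5b: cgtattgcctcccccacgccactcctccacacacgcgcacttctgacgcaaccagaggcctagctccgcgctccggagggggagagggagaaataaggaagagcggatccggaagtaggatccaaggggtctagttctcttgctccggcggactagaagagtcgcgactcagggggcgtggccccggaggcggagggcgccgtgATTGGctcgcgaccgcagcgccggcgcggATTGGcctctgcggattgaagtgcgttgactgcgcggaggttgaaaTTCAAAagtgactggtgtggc
Kif18a: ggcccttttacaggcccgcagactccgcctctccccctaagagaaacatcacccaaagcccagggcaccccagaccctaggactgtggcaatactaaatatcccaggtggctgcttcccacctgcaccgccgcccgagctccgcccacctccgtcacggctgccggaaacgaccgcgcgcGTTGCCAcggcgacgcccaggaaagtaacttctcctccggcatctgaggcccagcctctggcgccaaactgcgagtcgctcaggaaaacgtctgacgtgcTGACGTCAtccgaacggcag
Kif17: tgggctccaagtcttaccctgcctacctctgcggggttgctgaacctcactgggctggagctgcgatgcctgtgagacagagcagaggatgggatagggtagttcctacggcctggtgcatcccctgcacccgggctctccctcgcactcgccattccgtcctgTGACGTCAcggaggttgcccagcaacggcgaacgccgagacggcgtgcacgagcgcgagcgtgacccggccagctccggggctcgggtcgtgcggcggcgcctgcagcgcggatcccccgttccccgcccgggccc
Kif1b: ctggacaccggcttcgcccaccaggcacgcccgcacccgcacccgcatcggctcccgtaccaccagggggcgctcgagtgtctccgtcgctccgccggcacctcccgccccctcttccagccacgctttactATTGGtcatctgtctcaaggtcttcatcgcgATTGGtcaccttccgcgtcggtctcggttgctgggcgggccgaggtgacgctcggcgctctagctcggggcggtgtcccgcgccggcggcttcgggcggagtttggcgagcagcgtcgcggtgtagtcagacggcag

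The classes differed most in the CHR element. It was present in the promoters of 11 of 13 mitotic and meiotic kinesins (84.6%), against 1 of 11 transport kinesins (9.09%), 2 of 9 other or ciliary kinesins (22.2%) and 18.5% of all 17492 genes with a promoter entry. The exceptions among the mitotic and meiotic kinesins were Kif18a and Kif2b. Within 50 bp of the start it was present in 9 of 13 mitotic and meiotic kinesins (69.2%), against 1 of 11 transport kinesins and 4.58% of all genes. Its first base lay at -19 in Kif11 and in Kif15, at -17 in Kif22, at 2 in Kifc1, at 3 in Kif23, at 4 in Kif18b, at 20 in Kif4 and at 30 in Kifc5b. Kif20b had 2 matches, at 8 and 14. In Kif14 and Kif2c the match lay farther upstream, at -228 and -103. The transport exception was Kif1a, whose match lay in the second of its annotated promoters.

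CCAAT boxes were present in 9 of 13 mitotic and meiotic kinesins (69.2%), against 3 of 11 transport kinesins (27.3%), 4 of 9 other or ciliary kinesins (44.4%) and 42.3% of all genes. In the 100 bp before the start a CCAAT box was present in 9 of 13 mitotic and meiotic kinesins (69.2%), against 3 of 11 transport kinesins (27.3%) and 24.3% of all genes. The RFX motif, read by the RFX factors of cilium genes, was present in 3 of 9 other or ciliary kinesins (Kif9, Kif24 and Kif2a), 2 of 13 mitotic and meiotic kinesins, 1 of 11 transport kinesins and 4.8% of all genes. A CRE was present in Kif18a, Kif5c and Kif17, 9.09% of the 33 kinesins, against 2.54% of all genes. The MYB motif (AACNGTT) was found in Kif14 alone, against 4.6% of all genes, and the palindromic NRF1 motif in no kinesin, against 1.47%. CpG dinucleotides had a median of 26 per window in the kinesins and 13 in all genes. The median was 26 in mitotic and meiotic and 30 in transport kinesins. These matches describe the letters of the window and not bound sites.

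**Figure D1:**
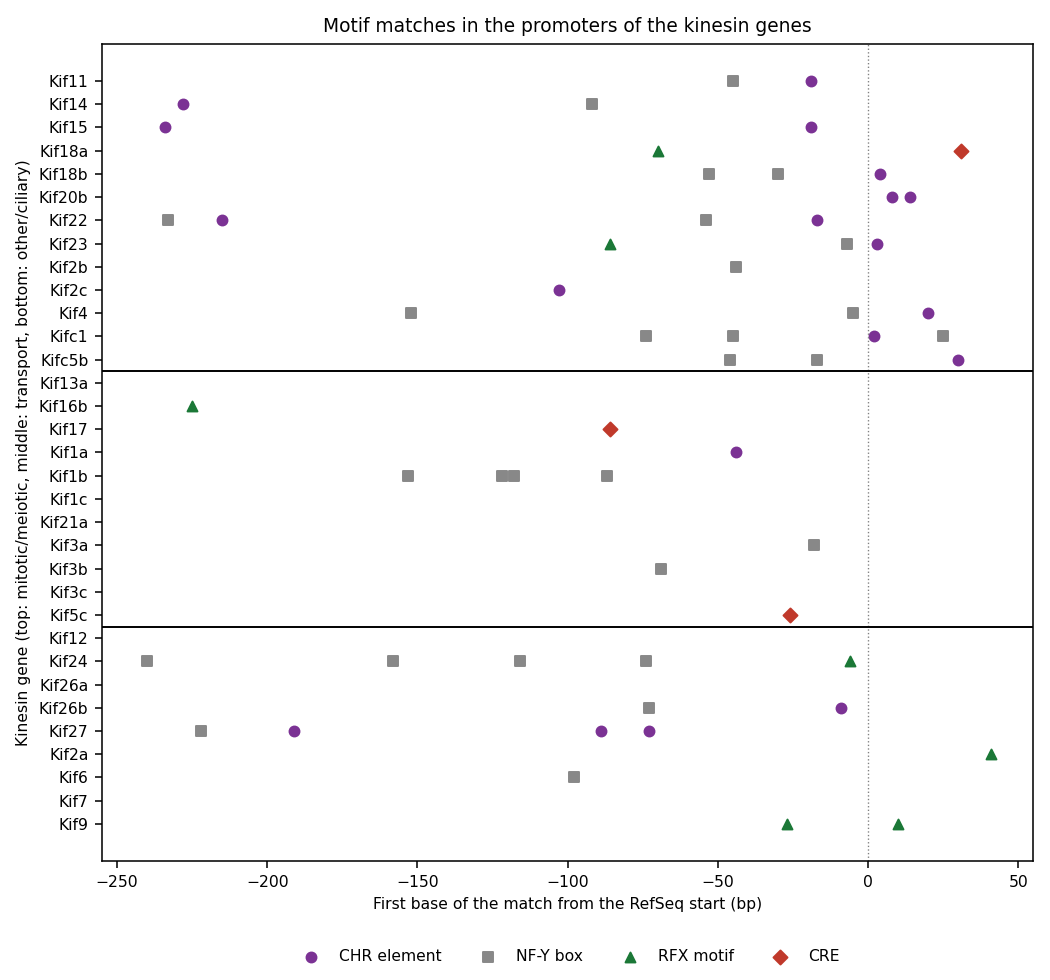
Motif matches in the promoter windows of the 33 kinesins with a RefSeq entry, 1 row per gene, by distance in bp of the match's first base from the start; symbols mark the motif, and black lines separate the classes. CHR elements are found in 11 of 13 mitotic and meiotic rows, 9 of them within 50 bp of the start, against 1 of 11 transport rows.

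In the meiotic fraction with intact Gcn5, the ends of all mitotic and meiotic kinesins were open. Subnucleosome peaks were present at 23 of 42 kinesins in cKO (33.1% of all genes), 33 in WT (47.5% of all genes) and 31 in SV129 (45.0% of all genes). As shares of the kinesins these were 54.8% (95% interval 39.9 to 68.8) in the cKO list, 78.6% (64.1 to 88.3) in the WT list and 73.8% in that of SV129. Among the 14 mitotic and meiotic kinesins 12 had a peak in cKO, 14 in WT and 14 in SV129. Among the 17 transport kinesins 8 had one in cKO, with 12 in WT and 12 in SV129. The share in mitotic and meiotic kinesins exceeded that in transport kinesins by 38.7 percentage points in cKO (4.87 to 61.9). The excess was 29.4 points in WT (2.51 to 53.1) and 29.4 points in SV129 (2.51 to 53.1). These intervals are for the count over either end, and they do not include 0. Counted at RefSeq starts alone, the difference was 23.8 points in cKO, 11.9 in WT and 11.9 in SV129 (11 of 13 mitotic and meiotic against 8 of 11 transport kinesins in both intact lists). Other or ciliary kinesins were occupied at 3, 7 and 5 of 11 genes in cKO, WT and SV129. An alternative chosen after seeing the data left out the 16 kinesins that have another protein-coding gene end within 1000 bp. It left 8 mitotic and meiotic kinesins, occupied at 7 genes in cKO and all 8 in WT and SV129. It also left 12 transport kinesins, occupied at 6, 9 and 9. No interval was built for the differences counted at RefSeq starts or without these 16 kinesins.

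**Figure D2:**
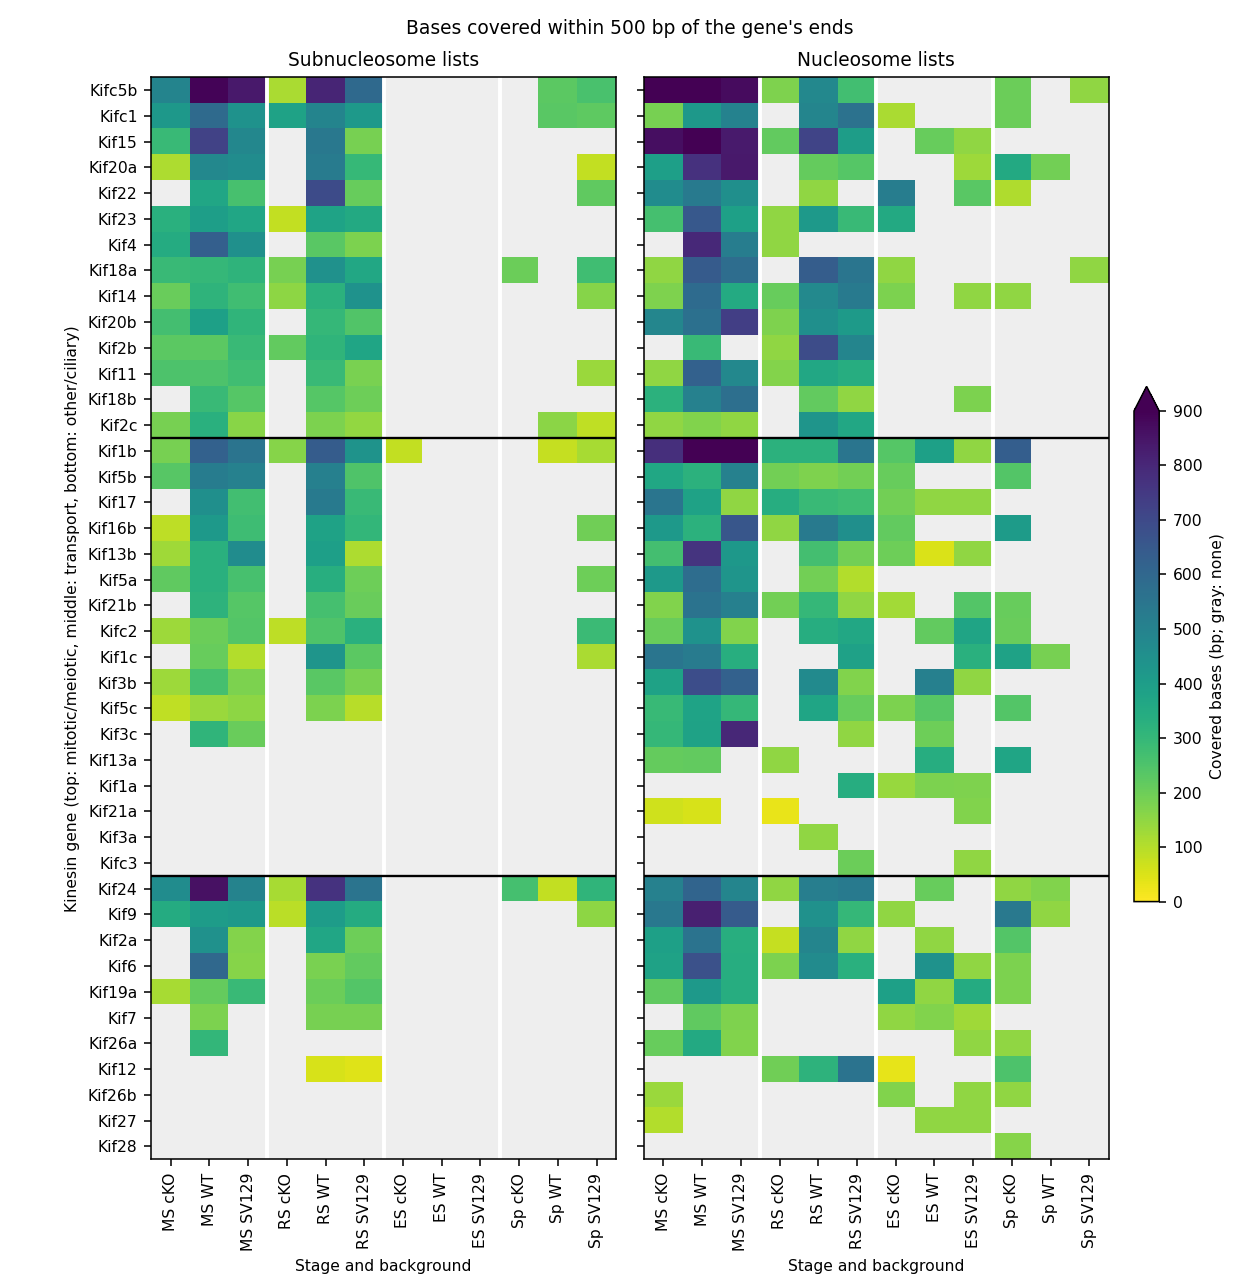
Bases covered by intervals within 500 bp of the ends of each kinesin gene (rows), in the 12 subnucleosome lists (left) and the 12 nucleosome lists (right); colour gives covered bp and gray means none, and black lines separate the classes. The mitotic and meiotic rows are filled in all intact MS and RS subnucleosome columns, and 8 rows have no peak in any list. The sperm nucleosome columns are filled at 22 of 42 rows in cKO and mostly gray in WT and SV129.

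Among the spindle motors at MS, Kif11, the kinesin that pushes spindle poles apart, had 251 bp covered by peaks in cKO, 252 bp in WT and 275 bp in SV129. Kif15, which shares that task, had 291 bp in cKO, 721 bp in WT and 484 bp in SV129. The peak at Kif11 was thus of like length in the 3 lists, while that at Kif15 was shorter in cKO than in either intact list. The start of Kif15 lies 81 bp from the end of 1110059G10Rik, and the peak cannot be assigned to either gene. Kif18a, a kinesin that damps chromosome movement at metaphase, had 289 bp in cKO, 300 bp in WT and 314 bp in SV129. Kif2c, which takes microtubule ends apart at centromeres, had 185 bp in cKO, 327 bp in WT and 160 bp in SV129. Its peak covered the annotated end of the gene, 3852 bp before the RefSeq start. Kif2b, a relative of Kif2c, had 226 bp in cKO, 226 bp in WT and 289 bp in SV129.

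Kifc1 walks to microtubule minus ends, focuses spindle poles and later serves the acrosome and nuclear shaping of spermatids. It had 420 bp covered at MS in cKO, 588 bp in WT and 441 bp in SV129. Kifc5b, its close relative, had 494 bp in cKO, 892 bp in WT and 837 bp in SV129, over both of its ends. The promoter windows of the pair were identical at 248 of 262 aligned bases (94.7%), so reads could have been placed at either gene, and the values of both are uncertain.

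The kinesins of the midzone and of cytokinesis were also open at MS. Kif23, the motor of the centralspindlin complex that builds the midzone and the bridges between germ cells, had 328 bp in cKO, 394 bp in WT and 368 bp in SV129. Kif14 had 207 bp in cKO, 313 bp in WT and 277 bp in SV129, and Kif20b had 269 bp in cKO, 387 bp in WT and 312 bp in SV129. Both act late in cytokinesis. The Kif14 peak lay at the annotated gene end, 1547 bp before the RefSeq start. Kif20a, which brings the chromosomal passenger complex to the midzone, had 110 bp in cKO, 479 bp in WT and 462 bp in SV129. Of the chromokinesins, which bind chromosome arms, the X-linked Kif4 had 347 bp in cKO, 627 bp in WT and 447 bp in SV129. Kif22, the other chromokinesin, had none in cKO, 368 bp in WT and 261 bp in SV129. Kif18b, a relative of Kif18a, had none in cKO, 291 bp in WT and 236 bp in SV129. Kif22 and Kif18b were the mitotic and meiotic kinesins without a peak in cKO at MS. Another gene's end lies 239 bp from Kif20a (Brd8), 117 bp from Kif4 (Pdzd11) and 541 bp from the far end of Kif22 (Maz). Peaks at those ends cannot be assigned to either gene.

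Of the transport kinesins, Kif1b, which carries mitochondria and vesicles, had 186 bp in cKO, 619 bp in WT and 555 bp in SV129 at MS. Kif5b, the ubiquitous conventional kinesin, had 235 bp in cKO, 522 bp in WT and 505 bp in SV129, and its relative Kif5c had 87 bp in cKO, 136 bp in WT and 153 bp in SV129. Kif3b, a subunit of the kinesin that builds cilia and flagella, had 132 bp in cKO, 266 bp in WT and 179 bp in SV129. Each of these 4 was occupied in all 3 lists, with less covered in cKO than in either intact list. Kif17, which in mouse testis is known to carry the CREM coactivator Act, had none in cKO, 450 bp in WT and 272 bp in SV129. Kif3c had none in cKO, 312 bp in WT and 206 bp in SV129, and no peak at any later stage. Kif21b and Kif1c were likewise without a peak in cKO only. The remaining occupied genes, Kif5a, Kif13b, Kif16b and Kifc2, had a peak in all 3 lists, with 89 to 219 bp in cKO. Another gene's end lies 111 bp from Kif1c (Inca1), 86 bp from Kif5a (Dctn2) and 424 bp from Kifc2 (Cyhr1). Peaks at those ends cannot be assigned to either gene.

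Of the other or ciliary kinesins, Kif24, which acts at the mother centriole, had the longest cover at MS in WT, with 462 bp in cKO, 860 bp in WT and 496 bp in SV129. Its annotated end lies 162 bp from that of Nudt2, and the peaks cannot be assigned to either gene. Kif9, a motor of the mouse sperm flagellum, had 348 bp in cKO, 402 bp in WT and 418 bp in SV129, beside Klhl18, whose annotated end is 1 bp away. Kif19a, which limits the length of cilia, had 119 bp in cKO, 214 bp in WT and 289 bp in SV129. Kif2a, a depolymerase of spindle poles and cilia, had none in cKO, 443 bp in WT and 166 bp in SV129, and Kif6, a kinesin of ependymal cilia, none in cKO, 595 bp in WT and 162 bp in SV129. Kif7, the Hedgehog regulator of the cilium tip, had none in cKO, 176 bp in WT and none in SV129. Kif26a had none in cKO, 303 bp in WT and none in SV129, and no peak at an end later. Around its RefSeq start, 2234 bp from the annotated end, it had none in cKO, 87 bp in WT and none in SV129 at RS. All 4 genes lacked a peak in cKO at MS, and Kif7 and Kif26a lacked one in SV129 too.

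No mitotic or meiotic kinesin was without a peak throughout, but 8 kinesins of the remaining classes had none at an end in any of the 12 subnucleosome lists: the transport kinesins Kif1a, Kif3a, Kif13a, Kif21a and Kifc3, and the other kinesins Kif26b, Kif27 and Kif28. Kif1a moves synaptic vesicle precursors in neurons, and Kif26b lacks motor activity and is known from the kidney. For Kif3a, the partner of Kif3b, the gene's annotated end lies 1668 bp from the RefSeq start. Around that start Kif3a did have peaks, covering 142 bp in cKO, 201 bp in WT and 158 bp in SV129 at MS, and none in cKO, 524 bp in WT and 205 bp in SV129 at RS. Its absence from the counts is therefore set by the annotated end. Kif21a, whose RefSeq start lies 431 bp inside the gene, had none around that start in cKO round spermatids, 78 bp in WT and none in SV129. Kif27, the relative of Kif7, has its RefSeq start 9798 bp inside the gene.

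In round spermatids the intact lists kept nearly the same kinesins open, while most had no peak in cKO. Peaks were present at 10 of 42 kinesins in cKO (11.2% of all genes), 32 in WT (46.5% of all genes) and 32 in SV129 (40.1% of all genes). Of the 33 kinesins occupied at MS in WT, 31 were occupied at RS in WT (93.9%), near the 87.9% of all genes. Of the 14 mitotic and meiotic kinesins 6 had a peak in cKO, and all 14 had one in WT and in SV129, although round spermatids no longer divide. Of the 17 transport kinesins 2 were occupied in cKO, with 11 in WT and 11 in SV129, and of the 11 other or ciliary kinesins 2, 7 and 7. The difference between mitotic and meiotic and transport kinesins was 31.1 percentage points in cKO (-0.0638 to 57.1), 35.3 points in WT (7.24 to 58.7) and 35.3 points in SV129 (7.24 to 58.7).

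**Figure D3:**
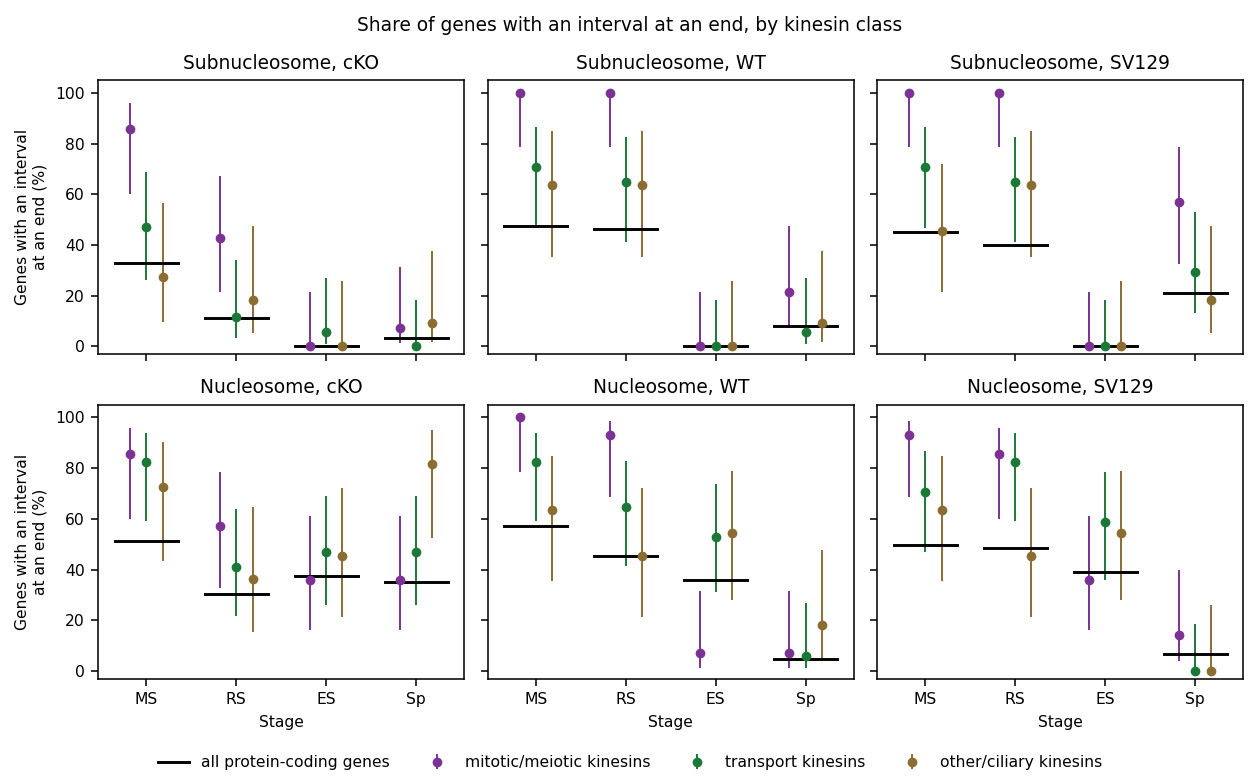
Share of genes with an interval at an end (%), by stage, for the 3 kinesin classes (points with Wilson 95% intervals, which cover counting error only) and all protein-coding genes (black lines), in cKO, WT and SV129, with subnucleosome peaks above and nucleosome calls below. Mitotic and meiotic kinesins reach 100% for peaks in intact MS and RS and 42.9% in cKO RS; in cKO sperm the nucleosome shares of all classes lie far above those in WT and SV129 sperm.

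Counted as losses, 10 of the 33 kinesins with a WT peak at MS had none in cKO, against 30.8% of all genes with a WT peak. Between the intact lists, 2 of 33 had none in SV129, against 9.58% of all genes. At RS 22 of 32 kinesins with a WT peak had none in cKO, against 76.0% of all genes, and 0 of 32 had none in SV129, against 15.9% of all genes. The kinesins' losses in cKO thus lay near the share of all genes. By class the losses at RS were 8 of 14 mitotic and meiotic, 9 of 11 transport and 5 of 7 other or ciliary kinesins. No kinesin had a peak in cKO that WT lacked at either stage, and of all 21887 genes 43 had one at MS and 0 at RS. These losses moved with the shorter cKO list and, at RS, with the meiotic and spermatid markers given above. The part of list length, read depth and cell composition was not tested.

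Summed over both ends, the longest WT covers at RS without any peak in cKO were found at Kif22 (696 bp in WT, 209 bp in SV129), Kif15 (541 bp in WT, 184 bp in SV129), Kif17 (533 bp in WT, 289 bp in SV129), Kif20a (527 bp in WT, 298 bp in SV129) and Kif5b (509 bp in WT, 249 bp in SV129). At the RefSeq start alone Kif22 had none in cKO, 323 bp in WT and none in SV129. Next came Kif1c, Kif13b, Kif16b, Kif2a and Kif5a, with 334 to 431 bp in WT. The far end of Kif22 lies 541 bp from Maz, and ends of Kif15, Kif20a, Kif1c and Kif5a also lie near another gene's end. Peaks at those ends cannot be assigned to either gene. Kif11, open over 251 bp in cKO at MS, had none in cKO at RS, against 289 bp in WT and 182 bp in SV129. The same was true of Kif4, with none in cKO, 229 bp in WT and 177 bp in SV129. Kif2c had none in cKO, 177 bp in WT and 147 bp in SV129.

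The 10 kinesins that still had a peak in cKO round spermatids were Kif14, Kif18a, Kif23, Kif2b, Kifc1, Kifc5b, Kif1b, Kifc2, Kif24 and Kif9. All 10 also had one in cKO at MS, as did 94.9% of all genes with a peak in cKO round spermatids. Kifc1 kept most of its cover, with 380 bp in cKO, 494 bp in WT and 417 bp in SV129. Kif2b had 216 bp in cKO, 311 bp in WT and 371 bp in SV129, and Kif18a 183 bp in cKO, 444 bp in WT and 359 bp in SV129. Kif1b had 164 bp in cKO, 638 bp in WT and 438 bp in SV129. Kif18a and Kif2b, the mitotic and meiotic kinesins with no CHR element, were both among the 10. So were Kif14, Kif23, Kifc1 and Kifc5b, which have the element. Over all genes at RS, a peak lay at the start of 8.58% of genes with a CHR element and 13.7% of those without in cKO, of 38.5% and 53.2% in WT, and of 33.0% and 46.4% in SV129. At MS the shares were 27.3% and 38.9% in cKO, 38.9% and 54.9% in WT, and 36.7% and 52.0% in SV129. Over all genes these shares were thus lower with the element than without it. Promoter windows of all genes had a median of 23 CpG with a WT peak and 4 without at MS, and 22 and 5 at RS. The part of base composition in these shares was not tested.

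The score that the authors deposited with each WT and cKO peak, on a scale not given in the sources used here, had a higher median at the kinesins that kept a peak. At MS the highest WT score at an end had a median of 44.9 over the 23 kinesins with a cKO peak and 23.4 over the 10 without. At RS it was 57.1 over the 10 with a cKO peak and 32.4 over the 22 without. Kif18a led at both stages, with 82.5 at MS and 89.4 at RS, followed at RS by Kif14 with 89.3. The groups overlapped: Kif11 had no cKO peak at RS with a WT score of 56.4, and Kif9 kept one with 33.1. These values are descriptions of single lists, and the cKO lists were shorter than those of WT. The same medians over all genes are not given here, and whether the difference is particular to kinesins was not tested.

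**Figure D4:**
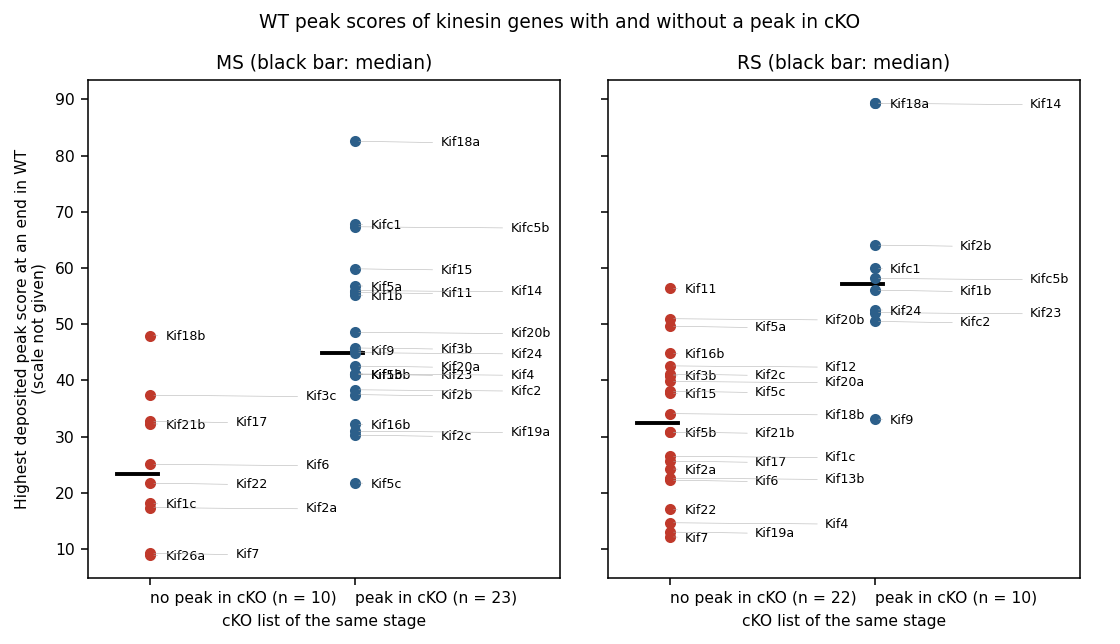
Highest deposited WT peak score at an end (y axis, scale not given) of each kinesin with a WT peak, separated by whether the cKO list of the same stage lacks or holds a peak there, at MS (left) and RS (right); each point is a gene and black bars are medians. Medians are 23.4 without and 44.9 with a cKO peak at MS, and 32.4 and 57.1 at RS, with overlap between the groups.

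The peaks of the intact lists sat just before the start. In the 33 kinesins with a RefSeq start, peak centres within 1000 bp of it had a median position of -96.0 bp in cKO, -39.5 bp in WT and -41.2 bp in SV129 at MS. At RS the median was -149 bp over 8 peaks in cKO, -49.8 bp over 30 peaks in WT and -52.8 bp over 26 peaks in SV129. Counted at the RefSeq start alone, 16 of 33 kinesins were occupied in cKO, 24 in WT and 23 in SV129 at MS, against 36.7%, 51.9% and 49.2% of all genes with a promoter entry in cKO, WT and SV129. At RS 8 were occupied in cKO, 26 in WT and 23 in SV129, against 12.7%, 50.5% and 44.0% of all such genes. A few peaks lay at the other end of the gene instead. Kif12 had a peak at RS only and at its far end only, with none in cKO, 54 bp in WT and 43 bp in SV129. Kif22 and Kifc5b had peaks at both ends, and their far ends lie near Maz and Phf1.

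**Figure D5:**
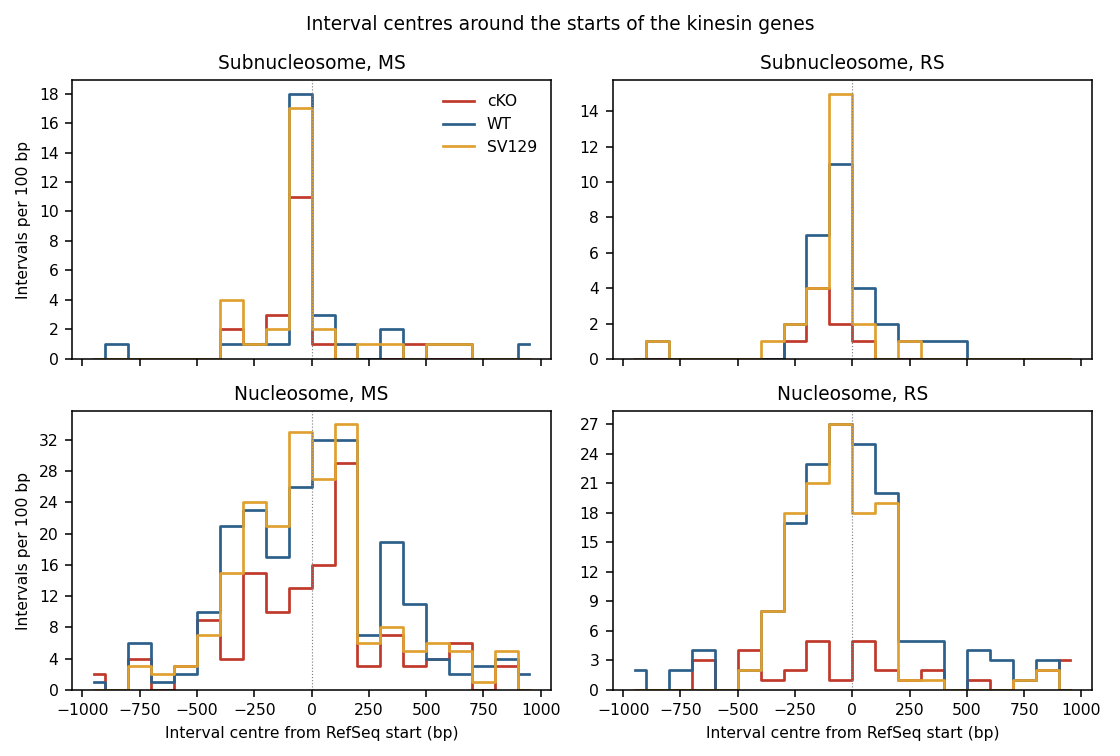
Number of interval centres per 100 bp around the RefSeq starts of 33 kinesins (x axis, bp from the start; negative is upstream), for subnucleosome peaks (top) and nucleosome calls (bottom) at MS and RS; red is cKO, blue WT and gold SV129. Peaks of the MS lists and of the intact RS lists crowd in the 100 bp before the start, while the 8 peaks of cKO RS have a median of -149 bp. At RS the nucleosome calls around it number 33 in cKO, 151 in WT and 118 in SV129.

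Nucleosome calls can overlap each other, and they too were scarcer at the kinesins in cKO round spermatids. At MS they were present at 34 of 42 kinesins in cKO (51.1% of all genes), 35 in WT (57.3% of all genes) and 32 in SV129 (49.7% of all genes). At RS they were present at 19 kinesins in cKO (30.3% of all genes), 29 in WT (45.5% of all genes) and 31 in SV129 (48.5% of all genes). Of the 29 kinesins with a call in WT round spermatids, 13 had none in cKO, against 49.6% of all genes, and 2 had none in SV129, against 14.0% of all genes. Near the start the fall was larger than the count of genes shows. At RS there were 33 calls within 1000 bp of the RefSeq starts in cKO, with 151 in WT and 118 in SV129. Calls at both ends of all genes longer than 2000 bp fell likewise at RS, to 17588 in cKO, against 52468 in WT and 50902 in SV129. Within 1000 bp of the kinesins' RefSeq starts at MS there were 131 calls in cKO, with 223 in WT and 205 in SV129. At both ends the kinesins had 166, 276 and 250 calls at MS, and all genes longer than 2000 bp had 55288, 89238 and 72887. Kif18a had no covered base in cKO, 635 bp in WT and 550 bp in SV129 at RS. Kifc1 had none in cKO, 490 bp in WT and 560 bp in SV129. Kif2c had none in cKO, 430 bp in WT and 360 bp in SV129. In each of these 3 genes both intact lists had calls and the cKO list had none. The X-linked Kif4 went the other way, with 150 bp in cKO and none in WT or SV129, which is the width of 1 call.

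In elongating spermatids the ends were nearly bare of peaks. A peak was present at 1 kinesin in cKO, Kif1b with 84 bp, and at none in WT or SV129, while 0.0959%, 0.0457% and 0.0868% of all genes had one in cKO, WT and SV129. Nucleosome calls were present at 18 kinesins in cKO (37.5% of all genes), 16 in WT (35.7% of all genes) and 21 in SV129 (39.2% of all genes). For nucleosome calls at MS and RS, every interval for the difference between mitotic and meiotic and transport kinesins included 0. In the ES lists the mitotic and meiotic kinesins had the lower share. Mitotic and meiotic kinesins had calls at 5, 1 and 5 of 14 genes in cKO, WT and SV129, and transport kinesins at 8, 9 and 10 of 17. The share in mitotic and meiotic kinesins was below that in transport kinesins by a difference of -11.3 points in cKO (-40.6 to 21.6), -45.8 points in WT (-67.5 to -13.0) and -23.1 points in SV129 (-50.6 to 11.1), so that the interval excluded 0 in WT only. Calls in ES lists matched poorly between backgrounds even with Gcn5 intact: of the SV129 calls 8.53% overlapped a WT call.

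In mature sperm a few kinesin ends were open, most of them in SV129. Peaks were present at 2 of 42 kinesins in cKO (3.34% of all genes), 5 in WT (8.0% of all genes) and 15 in SV129 (21.2% of all genes). In cKO they lay at Kif18a (202 bp) and Kif24 (264 bp). In WT they lay at Kif2c (158 bp), Kifc1 (230 bp), Kifc5b (228 bp), Kif24 (81 bp) and Kif1b (79 bp). All 5 of these had a peak in SV129, and so did Kif18a, with 276 bp. Kif24 was the kinesin with a peak in all 3 sperm lists, but its annotated end lies 162 bp from that of Nudt2. Its sperm peaks cannot be assigned to either gene. The SV129 set held 8 mitotic and meiotic kinesins, adding Kif11, Kif14, Kif20a and Kif22, then the transport kinesins Kif16b, Kif1b, Kif1c, Kif5a and Kifc2, and Kif24 and Kif9, with 84 to 312 bp each. Every kinesin with a sperm peak also had one in round spermatids of the same background, 2 of 2 in cKO, 5 of 5 in WT and 15 of 15 in SV129. Over all genes with a sperm peak this share was 66.3% in cKO, 95.5% in WT and 90% in SV129. Leaving out the 16 kinesins with another protein-coding gene end within 1000 bp left 26. SV129 sperm had a peak at 6 of these, WT sperm at 3 and cKO sperm at none.

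Nucleosome calls in sperm were rare in the intact lists and frequent in cKO. They were present at 22 of 42 kinesins in cKO (35.2% of all genes), 4 in WT (4.62% of all genes) and 2 in SV129 (6.79% of all genes). In WT the 4 genes were Kif20a, Kif1c, Kif24 and Kif9, with 150 to 190 bp each. In SV129 they were Kif18a and Kifc5b, with 150 bp each. Each of these kinesins, in WT and in SV129, has another protein-coding gene end within 1000 bp. Leaving out the 16 kinesins with such a neighbour left 26. The cKO sperm list had calls at 13 of them, and neither intact sperm list had any. Of the 36 kinesins without a call in either intact sperm list, 17 had one in cKO sperm, against 30.7% of all such genes. The longest covers among them in cKO were 631 bp at Kif1b, 407 bp at Kif16b, 372 bp at Kif13a, 252 bp at Kif12 and 240 bp at each of Kif2a, Kif5b and Kif5c, followed by Kif21b (210 bp), Kifc2 (205 bp) and Kifc1 (202 bp). Other or ciliary kinesins had calls in cKO sperm at 9 of 11 genes, transport kinesins at 8 of 17 and mitotic and meiotic kinesins at 5 of 14. The sperm list of cKO held 347951 nucleosome calls, against 8628 in WT and 13615 in SV129, and the part of that length in the kinesins' counts was not tested.

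Calls in cKO sperm overlapped calls of the meiotic fraction, at kinesins and at the ends of all genes. Of the 81 calls at kinesin ends in cKO sperm, 61.7% overlapped a cKO call of the meiotic fraction by at least 75 bp, 65.4% a WT call and 63.0% an SV129 call. Over the 20606 cKO sperm calls at the ends of all genes these shares were 45.4%, 55.8% and 51.1%. At RS the shares at kinesins were 16% for cKO calls, 45.7% for WT and 53.1% for SV129, against 20.7%, 44.7% and 45.9% over all gene ends. For the ES lists, the longest of all, they were 17.3% for cKO, 18.5% for WT and 8.64% for SV129, against 13.3%, 10.8% and 11.1%. For the short intact sperm lists they were 8.64% for WT and 0% for SV129, against 6.37% and 11.2%. Meiotic markers had a nucleosome call at 1 of 5 genes in cKO sperm, against 0 of 5 in WT and 0 of 5 in SV129, and Sertoli markers at 1 of 5, against 0 and 0. Spermatid markers also had a call at 1 of 5 genes in cKO sperm, against 0 and 0. Leydig, blood and epididymal markers had no nucleosome call in any sperm list.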

How the data were processed

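Paired-end ATAC-seq of 34 libraries in 12 groups was analysed from 24 deposited interval lists, 1 subnucleosome and 1 nucleosome list per group. The submitters' processing notes name STAR 2.5.2a, MACS2 2.1.0.20140616 and the build GRCm38 (mm10); their roles, and how libraries were combined, are not given in the sources used here. The lists' score column, as the authors deposited it, has no stated scale and is 0 throughout the SV129 subnucleosome lists; it was used only to describe WT peaks and to rank peaks within a list. Depth is unknown.

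Intervals were matched to gene ends in Python 3.11.15 with pandas 2.3.3, with an overlap of at least 1 bp in the 500 bp on either side; the matching was tested on simulated data. RefSeq promoter windows matched 33 of 42 kinesins; Kif20a, Kif19a, Kif28, Kif13b, Kif21b, Kif5a, Kif5b, Kifc2 and Kifc3 had no entry. The Kifc1 and Kifc5b windows were aligned with biopython 1.88. Differences between class shares have intervals built from the Wilson intervals. The members, classes, motifs and marker lists were chosen with earlier results of these data known. Kinesins were named by role and by rule: those with a peak in both intact lists and none in cKO, with a sperm peak, with nucleosome calls in cKO sperm alone, with no peak, and the 3 per class with most cover. Alternatives changed the window, the overlap, the end counted, the peaks or calls kept and the class members.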

Additional observations from a re-analysis of the deposited data

Results flagged for a closer look

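The number of kinesins with a nucleosome call at an end was below both intact lists in cKO round spermatids and above both in cKO sperm. The difference of cKO from WT was -10 genes at RS and 18 genes at Sp, and the difference between the stages was not tested. For subnucleosome peaks the difference of cKO from WT was -10 genes at MS, -22 at RS and -3 at Sp, and cKO lay below both intact lists at each of these stages, whereas at ES it was 1 gene, Kif1b, above both. The difference between these stages was not tested either.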

How the results depend on the processing

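No paired analysis was possible because each list pools the libraries of a group and the lists carry no replicate number; for the same reason no library could be left out. Over 27 alternatives, the 3 counts of kinesins without an interval in cKO stayed within 1.5 times the reported count. The mitotic and meiotic share of peaks stayed above the transport share in all alternatives at MS and RS, by 11.9 to 39.5 percentage points at MS and 19.6 to 41.7 at RS. For nucleosome calls the order of these classes was less stable: when only RefSeq starts were counted the difference was -29.4 points in cKO MS (reported 3.36), -6.29 in WT MS (17.6), -4.9 in SV129 MS (22.3), -4.9 in SV129 RS (3.36) and -9.09 in WT sperm (1.26).

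Of 164 alternative counts of occupied kinesins, 18 differed by more than 1.5 times. With the upper 50% of peaks by score, peaks were counted at 14 kinesins in cKO MS, 6 in cKO RS and 0 in cKO ES. With a window of 100 bp, 3 kinesins had a peak in WT sperm, and nucleosome calls were counted at 11 in cKO RS, at 9, 6 and 7 in ES of cKO, WT and SV129, and at 13 in cKO and 0 in SV129 sperm. With 250 bp the counts were 13 in SV129 ES and 1 in SV129 sperm. At RefSeq starts alone, where 33 kinesins can be counted, they were 22 in cKO MS, 9 and 10 in ES of WT and SV129, and 13 and 1 in sperm of cKO and SV129. Without calls at the most common score, SV129 sperm had 1. The cause of these changes was not tested beyond the smaller number of bases, intervals or genes that each alternative counts. Genes here can share an interval with a neighbour, an annotated end can lie far from the start in use, and a missing interval does not show closed chromatin at an unknown depth.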

Other observations

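Partner genes of the kinesins, listed by role, were open at the same stages. Of 12 spindle and midzone partners (among them Cenpe, the kinetochore kinesin that the symbol rule leaves out, and Racgap1, which pairs with Kif23), 10 had a subnucleosome peak at an end in cKO, 12 in WT and 11 in SV129 at MS, and 2 in cKO, 11 in WT and 11 in SV129 at RS. Over all genes the shares were 33.1%, 47.5% and 45.0% at MS and 11.2%, 46.5% and 40.1% at RS in cKO, WT and SV129, so that 2 of 12 in cKO round spermatids lay near the share of all genes. The 2 in cKO round spermatids were Cdca8, a subunit of the chromosomal passenger complex, and Prc1, which bundles midzone microtubules. In sperm 1 had a peak in cKO, 4 in WT and 7 in SV129, against 3.34%, 8.0% and 21.2% of all genes. Of 10 cargo adapters and regulators, among them the kinesin light chains Klc1 to Klc4, 5 had a peak in cKO, 9 in WT and 7 in SV129 at MS, 2, 9 and 6 at RS, and 0, 1 and 3 in sperm. Klc3, the light chain known from the sperm midpiece in rat, had a peak in intact round spermatids and none in cKO.

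Inside the genes, more than 500 bp from either end, nucleosome calls moved differently from those at the ends. Over the 42 kinesins in round spermatids, 37 calls lay at ends and 345 inside genes in cKO, 160 and 144 in WT, and 153 and 275 in SV129. The share inside genes was 90.3% in cKO, 47.4% in WT and 64.3% in SV129, against 83.8%, 61.6% and 63.1% over all genes longer than 2000 bp. In elongating spermatids 94.6% of the kinesins' calls in cKO, 95.2% in WT and 95.5% in SV129 lay inside genes, near the 92.3%, 93.5% and 92.5% over all genes. These were 881, 942 and 935 calls in the kinesins, more than at any other stage, as over all genes. Subnucleosome peaks inside mitotic and meiotic kinesins were absent at MS in all 3 backgrounds, whereas transport kinesins held 4 in cKO, 20 in WT and 15 in SV129; these counts are not adjusted for gene length.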
